A study of Danio rerio with 12 samples.

Results

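The transcriptome of untreated 2-day zebrafish (Danio rerio) was described from the 4 control libraries of a series of 12 RNA sequencing libraries. The control animals were of a wild-type strain, were taken as whole organisms and carried the perturbation label none. The other 8 libraries, from fish of the same strain and age with miR-101a or miR-29a, entered no level, rank or spread given here. The 4 libraries were chosen by their control label alone. The labels state neither how many animals went into a library nor whether the libraries came from separate clutches, so the spread between libraries may be technical.

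At this age the zebrafish embryo has its organs laid out and still lives on its yolk. The trunk is mostly fast skeletal muscle that already contracts, the heart beats, primitive red cells circulate, and the body is wrapped in an outer sheet of flattened periderm cells over basal epidermis. The yolk syncytial layer exports yolk lipid on apolipoproteins, while feeding has not begun and digestive glands, adult blood and germ line are at an early state. Many zebrafish genes exist as a pair of copies, a and b, left by a duplication of the whole genome in an ancestor of teleost fish.

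Levels of a gene are given in 2 units. CPM, the share of a gene in the counts of its library after TMM scaling, is used for a gene across libraries. RPKM, that share divided by the length of the gene (with no TMM factor), is used for levels of different genes. Means are given with the SD over the 4 libraries (n = 4 throughout), and values for single libraries follow the order of control replicates 1 to 4. Symbols in capitals are human-style names that the symbol table gives to zebrafish genes, and where several identifiers share such a name the identifier described is given. A gene is called detected when it reached 1 CPM in all 4 libraries.

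The libraries held 24456059, 28449797, 29585294 and 26482186 gene counts, so that 1 CPM stood for 24.5 to 29.6 reads. No pair of libraries differed by as little as counting noise. The chi-square statistic per gene, which is 1 for pure counting noise, was 1.60 for replicates 2 and 4, 3.13 to 4.24 for the pairs with replicate 1, and 6.82 and 7.10 for replicate 3 against replicates 2 and 4. The correlation of log2 CPM across 17671 genes was 0.994 to 0.997, given as a description, since genes are not independent. The first component of the deviations from the gene means held 48.3% of the variance, with loadings of -0.0435, -0.392, 0.830 and -0.394 for replicates 1 to 4, so that replicate 3 lay at one end. The second held 31.4%, with loadings of -0.859, 0.226, 0.246 and 0.388, so that replicate 1 lay at one end of it.

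Among 32105 measured genes, 17671 (55.0%) were detected, and these held 99.7% of all counts. A further 1051 genes reached 1 CPM in some libraries only, and 5876 genes had 0 counts in every library. A count of 0 allows up to 0.101 to 0.123 CPM in a library (3 counts of its total, counting error only). The settings of read counting are not given, so whether a gene with 0 counts had lost reads at that step was not tested. By length-scaled level, 94 genes stood at 1000 RPKM or more and held 24.2% of the counts, 499 genes at 100 to 1000 RPKM held 23.3%, 5521 genes at 10 to 100 RPKM held 38.1%, and 10506 genes at 1 to 10 RPKM held 13.9%. The 5581 genes at 0.1 to 1 RPKM held 0.565%, and 4028 genes above 0 and under 0.1 RPKM held 0.0281%. The 10 most abundant genes took 8.18%, 7.93%, 8.38% and 7.97% of a library, and the top 100 took 27.4% ± 0.338. Between 558 and 594 genes made up 50% of the counts of a library, and 6615 to 6775 made up 90%.

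The most abundant messages were those of the skin sheet and of fast muscle. Keratin krt4, a filament protein of the surface epithelium, had 13683, 14313, 13168 and 14302 CPM in replicates 1 to 4, and the muscle actin actc1b had 12881, 12116, 13694 and 12044 CPM. The ranges of this pair overlapped, and krt4 was the higher in replicates 1, 2 and 4 while actc1b was the higher in replicate 3. They were followed by atp2a1, the calcium pump of the sarcoplasmic reticulum, at 8649 ± 913 CPM and eef1a1l1, a translation elongation factor, at 8187 ± 437 CPM, whose ranges also overlapped. MT-CO1, an oxidase subunit encoded in the mitochondrion, had 7429, 7752, 7762 and 7728 CPM and lay below eef1a1l1 in every library. Below it came the fast myosin light chain MYL11 (ENSDARG00000053254, 7005 ± 328 CPM), tropomyosin tpma (6919 ± 439 CPM), the creatine kinases ckmb (5745 ± 362 CPM) and ckma (5488 ± 215 CPM), which buffer ATP in muscle, and the calcium-buffering parvalbumins pvalb2 (4902 ± 205 CPM) and pvalb1 (4544 ± 226 CPM).

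The remainder of the 20 highest by CPM joined muscle and housekeeping genes. The fast myosin heavy chain myhz1.1 had 4816, 3914, 5300.3 and 3949 CPM, with replicates 1 and 3 above replicates 2 and 4. The cytoplasmic actins actb1 and actb2 were close to each other at 4307 ± 57.3 and 4256 ± 74 CPM, with overlapping ranges, and varied by only 1.33% and 1.74% (coefficient of variation, CV). The other genes were the myosin light chain MYL1 (ENSDARG00000017441, 4265 ± 302 CPM), the chaperones HSPA8 (ENSDARG00000068992, 4100.3 ± 66.5 CPM) and HSP90AB1 (3743 ± 65.8 CPM), the mitochondrial MT-CO3 (3927 ± 177 CPM), the chromatin protein hmga1a (3910.0 ± 74.6 CPM), and SLC25A5 (3788 ± 83.8 CPM), which carries ADP and ATP across the inner mitochondrial membrane. Of the 19 steps between neighbours in this order, 6 separated genes whose ranges over the libraries did not overlap: actc1b over atp2a1, eef1a1l1 over MT-CO1, MT-CO1 over MYL11, tpma over ckmb, ckma over pvalb2, and actb2 over HSPA8.

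Scaling by length changed the order, and 12 genes were among the 20 highest on both scales. By RPKM actc1b led with 9874 ± 498, ahead of krt4 with 5618 ± 281, and their values did not overlap. MT-CO3 (4995 ± 182 RPKM), tpma (4971 ± 259 RPKM), MT-CO1 (4944 ± 109 RPKM), pvalb1 (4879 ± 198 RPKM) and MT-CO2 (4766 ± 154 RPKM) came next with overlapping ranges. The genes among the 20 highest by RPKM only were MT-CO2, the clone-named si:dkey-151g10.6 (4507 ± 86.7 RPKM), the embryonic alpha globin hbae3 (4097 ± 243 RPKM), the lipid carriers apoa1a (3500.4 ± 187 RPKM) and apoa1b (2669.5 ± 132 RPKM), the fast troponin TNNI2 (ENSDARG00000029069, 3279 ± 124 RPKM), the ribosomal protein gene rps20 (3245 ± 115 RPKM) and MT-ATP6 (3083 ± 164 RPKM). The long genes atp2a1 and myhz1.1, at places 3 and 12 by CPM, took places 32 and 123 by RPKM.

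**Figure D1:**
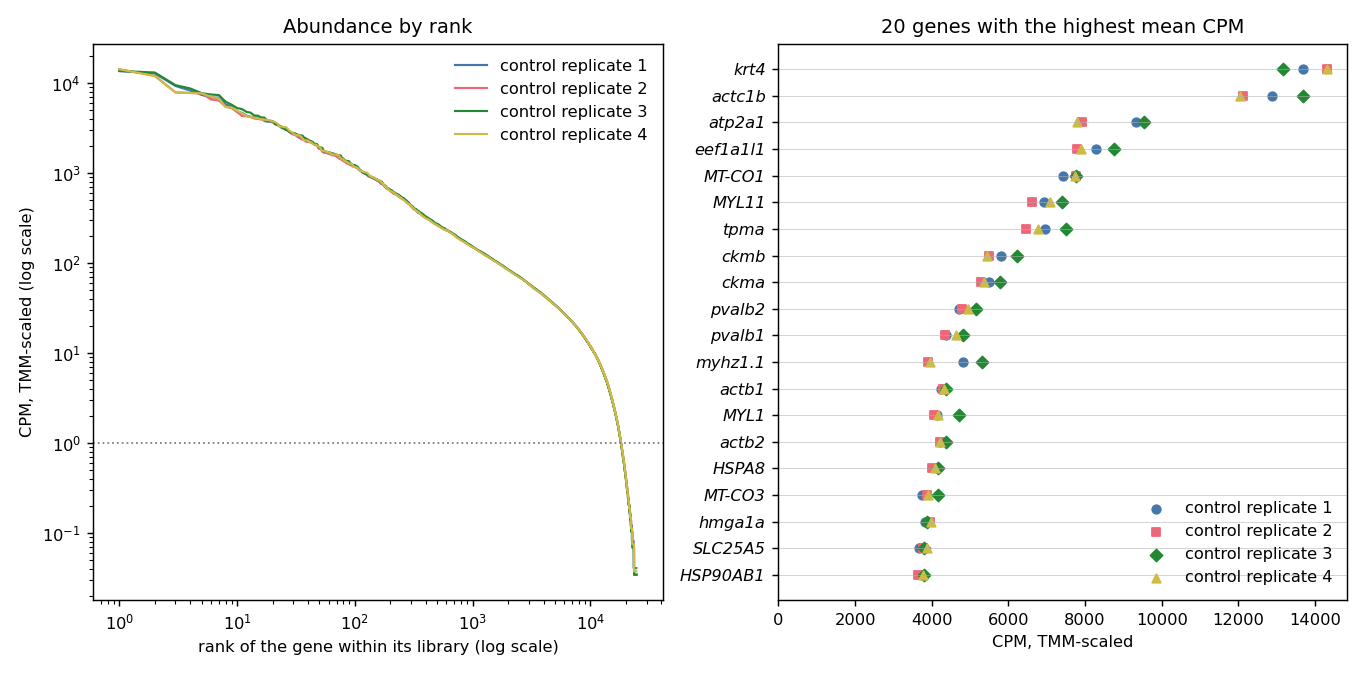
Left, CPM of every gene with a count against its rank within each of the 4 control libraries, both on log scales, with a dotted line at 1 CPM; the 4 curves lie over each other. Right, CPM of the 20 genes with the highest mean in each library, on a linear axis from 0; replicate 3 lies highest for actc1b, tpma and the other fast muscle genes and lowest for krt4.

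Sorted by family, the libraries were led by the translation machinery. The 89 cytosolic ribosomal protein genes took 9.87 ± 0.236% of the counts, and 88 of them were detected. Ribosomal protein genes made up 16 of the 50 genes with the highest RPKM. Muscle contraction and energy buffering filled several families: myosins took 2.88 ± 0.17% (36 genes), actins 2.44 ± 0.0971% (9 genes, the cytoplasmic ones included), creatine kinases and parvalbumins 2.2 ± 0.0695% (16 genes), and tropomyosins and troponins 1.82 ± 0.0765% (32 genes). Translation factors took 2.62 ± 0.039% with 80 genes. The 13 protein-coding genes of the mitochondrion took 2.43 ± 0.0467%, and 107 nuclear genes of oxidative phosphorylation 1.18 ± 0.0359%. Keratins and related filaments took 2.23 ± 0.054% with 24 genes. Shares of counts favour long genes, and as shares of the summed RPKM ribosomal protein genes took 17.98%, mitochondrial genes 5.036%, globins 1.307% and collagens 0.4227%.

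Collagens took 1.39, 1.26, 1.39 and 1.18% of the counts, and crystallins, the soluble proteins of the lens, took 0.363, 0.319, 0.436 and 0.311%. Replicates 1 and 3 lay above replicates 2 and 4 for both families. Globins took 0.441, 0.46, 0.407 and 0.47% and apolipoproteins 1.69, 1.76, 1.56 and 1.78%, with replicate 3 lowest in both. Several families of regulators were small in share and widely detected, beside 55.0% of all genes. Detected were all 47 hox genes, 51 of 62 fox genes and 23 of 28 sox genes. So were 86 of 93 genes of the dlx, nkx, lhx, pou, irx and pax families and their relatives, which took 0.267 ± 0.00413% of the counts. Zinc finger protein genes were less widely detected, with 142 of 274 detected and 14 without a count, and took 0.461 ± 0.00854% of the counts. Of 219 olfactory and taste receptor genes none was detected, and 92 had no count.

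Tissue composition was read from 49 lists of marker genes. They held 1646 entries with a measured gene, on 1461 different identifiers, since some genes mark several tissues. Of these identifiers 1150 were detected and 19 had no count. Where a human-style symbol was shared by copies, all matched copies were taken in. The counts and medians of the lists therefore include copies that were not chosen as markers. The median level over all 32105 genes was 1.19 RPKM, and 5.96 RPKM over the detected genes. In 30 of the 49 lists at least 80% of members were detected, and in 8 lists the share lay below the 55.0% of all genes. Detection by CPM takes no account of gene length, so long genes pass at a lower RPKM than short ones. For example, CDH23 was detected at 0.226 RPKM, while the OMP copies at 0.649 and 0.423 RPKM were not. Shares of lists with short and with long genes are therefore not on the same footing. The lists were chosen as markers with earlier results known, so these shares describe the lists only. In RNA from whole animals, fewer cells of a type and less RNA per cell cannot be told apart. The 3 highest members of a list are named by rule, and further members are named as textbook markers, chosen after their values were seen.

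**Figure D2:**
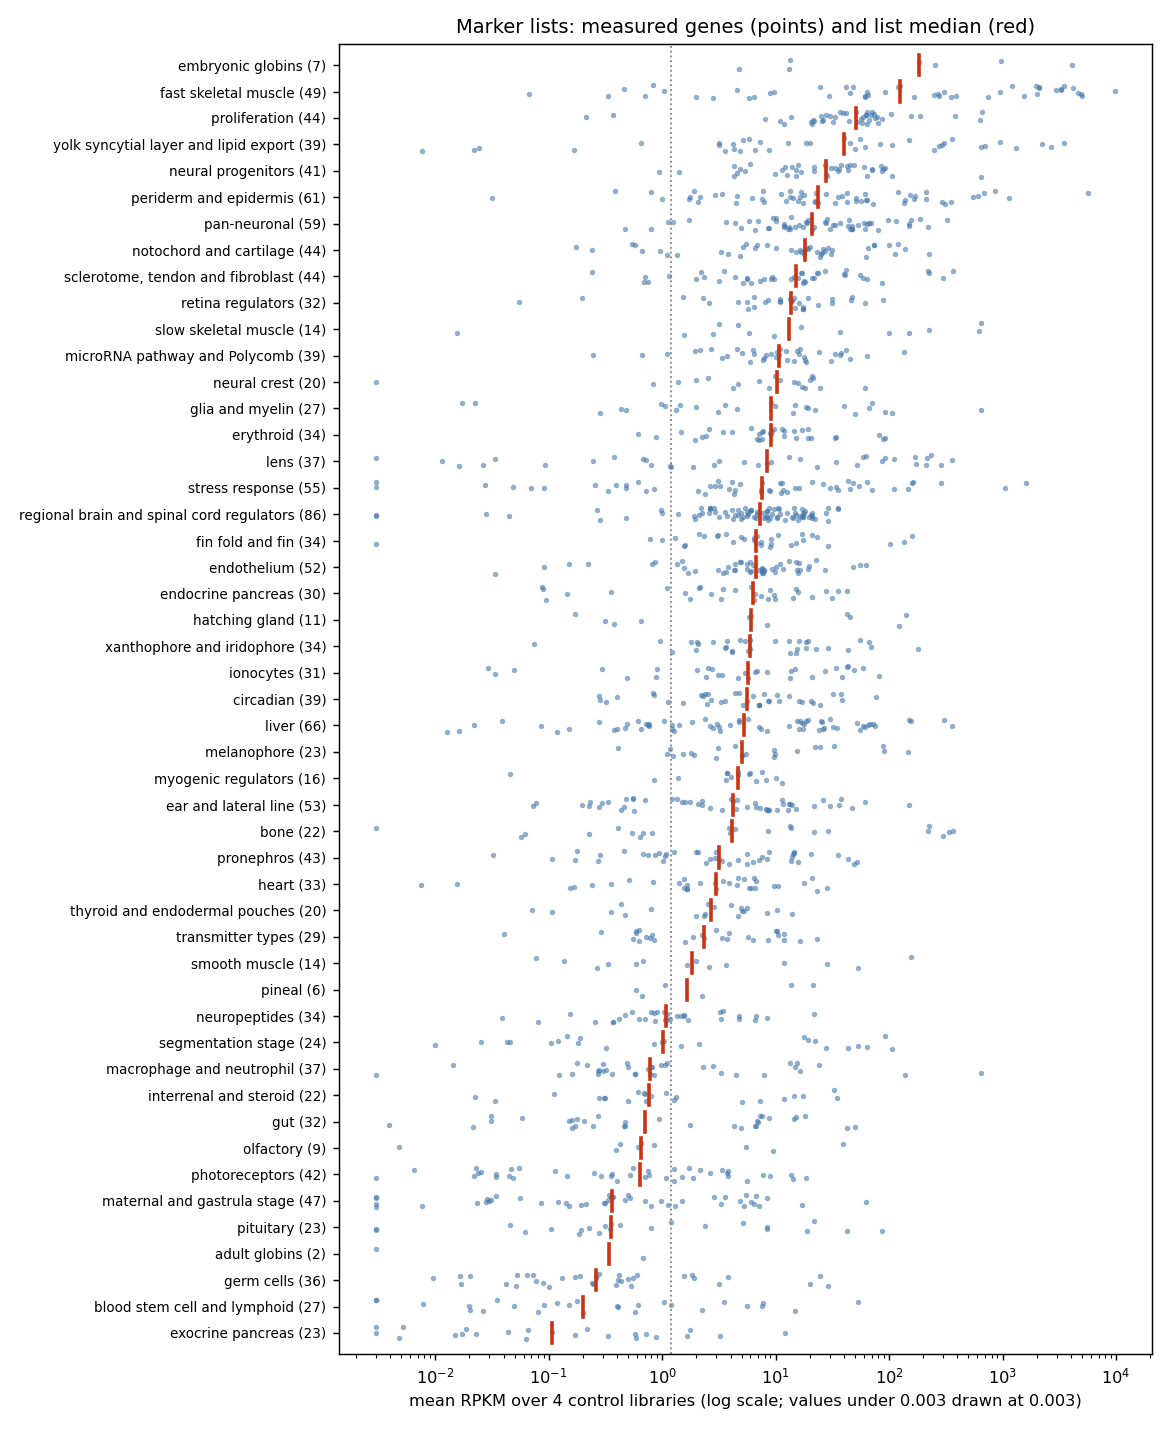
Mean RPKM over the 4 control libraries of each measured gene (points) in the 49 marker lists, on a log axis, with the list median as a red bar, the number of measured genes in parentheses and the median of all genes (1.19 RPKM) dotted. Embryonic globins and fast muscle stand at the top (medians of 182 and 124 RPKM), and exocrine pancreas, blood stem cell and lymphoid, and germ cells at the bottom (0.107, 0.202 and 0.261 RPKM).

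Fast skeletal muscle was the most strongly expressed of the differentiated tissues by summed CPM. Of its 49 measured markers 45 were detected and 26 stood at 100 RPKM or more, and together they held 93459, 86319, 100072 and 88169 CPM in replicates 1 to 4. Replicate 3 was highest and replicate 2 lowest. Behind actc1b, tpma and pvalb1, the thick filament was carried by myhz1.1 (748 ± 105 RPKM), myhz2 (302 ± 17.1 RPKM), myhz1.2 (278 ± 49.4 RPKM) and myhz1.3 (270.0 ± 32.2 RPKM), near-identical copies between which reads may have been split, so their separate values are uncertain. The other fast heavy chain genes myha (1.99 ± 0.578 RPKM) and myhb (0.827 ± 0.107 RPKM) were far lower. Each light chain had a pair of active copies: MYL11 had 4579.7 and 2008 RPKM (ENSDARG00000002589 the lower), and MYL1 2977 and 2113 RPKM (ENSDARG00000014196 the lower). The parvalbumins pvalb4 (385 ± 13.1 RPKM) and pvalb3 (42 ± 10.4 RPKM) lay below pvalb1 and pvalb2 in every library. The nebulin gene NEB, a ruler of the thin filament, had 29.5 ± 4.58 RPKM.

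Slow muscle, the thin superficial layer used for steady swimming, was present at a lower level, with 13 of 14 markers detected and 2544, 2354, 2488 and 2412 CPM in all. Its leading markers were the myosin light chains myl10 (650.5 ± 16.1 RPKM) and myl13 (623 ± 19.5 RPKM) and the slow troponin TNNC1 (224 ± 2.29 RPKM). The slow myosin heavy chain smyhc1 had 101 ± 4.24 RPKM against 1.57 ± 0.102 RPKM for its neighbour smyhc2. Reads may have been split between these similar copies too, so their separate values are uncertain. Of 16 myogenic regulators 15 were detected, at a median of 4.69 RPKM. Among them MYOD1, which commits cells to muscle, had 9.97 ± 1.01 RPKM, MYOG 3.74 ± 0.492 RPKM and MYF5 3.67 ± 0.534 RPKM. The presomitic clock gene her1 had 0.046 ± 0.00761 RPKM.

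Heart markers were low beside skeletal muscle but mostly present, with 28 of 33 detected and a median of 2.96 RPKM. The regulator TBX2 (ENSDARG00000006120, 28.2 ± 0.758 RPKM) led, and it also works in other tissues. The cardiac light chain genes MYL7 and cmlc1 had 23.1 ± 1.92 and 20.8 ± 0.972 RPKM, the natriuretic peptide genes nppa and nppb 9.68 ± 0.676 and 2.96 ± 0.481 RPKM, and the atrial myosin heavy chain myh6 1.66 ± 0.0999 RPKM. MYL7, cmlc1, nppa, nppb and myh6 mark heart muscle cells. The list held 1622, 1284, 1457 and 1149.6 CPM, a CV of 14.9%, and most of this sum lay in a pair of identifiers for titin, TTN, which skeletal muscle also uses. Without TTN the other 31 genes held 381, 380.1, 385 and 373 CPM, a CV of 1.3% (an alternative added after seeing the data). Among 14 smooth muscle markers 11 were detected, led by desmin (DES, ENSDARG00000058656, 157 ± 5.45 RPKM), TAGLN (ENSDARG00000033466, 53.4 ± 2.37 RPKM) and MYL9 (ENSDARG00000008030, 28.1 ± 1.97 RPKM). Desmin is also made by skeletal muscle, while the smooth muscle myosin genes named MYH11 had only 0.673 and 0.59 RPKM.

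Skin was the next tissue by the sum of its markers. Of 61 periderm and epidermis genes 58 were detected, and they held 25622, 25951, 25262 and 26139 CPM, a CV of only 1.5%. After krt4 came icn (1135 ± 60.1 RPKM) and the keratin krt1-19e (863 ± 87.2 RPKM). The calcium-binding gene icn2 had 684 ± 31.7 RPKM and the keratins cyt1l, krt5 and krt8 603 ± 18.3, 552 ± 19.7 and 354 ± 14.7 RPKM. The basal layer was visible through TP63, the master regulator of stratified epithelium, at 15.9 ± 0.474 RPKM, and through col17a1a, which anchors basal cells to the basement membrane, at 27.6 ± 0.921 RPKM. The mucin genes muc5.1 and muc5.2, products of mucous cells, had 1.72 ± 0.127 and 0.387 ± 0.0445 RPKM, and lamb3 was nearly silent at 0.0317 ± 0.0211 RPKM.

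Ionocytes, the skin cells that exchange salt with the water, had 27 of 31 markers detected. The highest were the band 3 anion exchanger SLC4A1 (ENSDARG00000012881, 82.2 ± 7.17 RPKM), the sodium pump subunit ATP1B1 (ENSDARG00000013144, 59.3 ± 0.912 RPKM) and the proton pump subunit ATP6V1A (ENSDARG00000034534, 49 ± 2.02 RPKM). SLC4A1 was matched by its human-style name, which does not tell the ionocyte copy from the red cell copy. It is also a leading gene of the erythroid list, so its level cannot be assigned to ionocytes. The ionocyte regulators foxi3a and foxi3b had 5.7 ± 0.398 and 6.86 ± 0.228 RPKM, and foxi3b was the higher of the pair in all 4 libraries. Of 34 fin genes 32 were detected, and the actinodins and2, and1 and and3, which build the fibres of the larval fin fold, led with 159 ± 4.37, 136 ± 4.88 and 102 ± 3.98 RPKM. The basement membrane gene hmcn2 had no count, while its relative HMCN1 had 3.04 ± 0.288 RPKM. The hatching gland, whose enzymes digest the egg shell, had he1.1 at 139.8 ± 17.5 RPKM and he1.2 at 45.1 ± 5.3 RPKM. XBP1 (122 ± 2.51 RPKM), also among the leading genes of this list, serves secretion in many tissues.

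Skeletal tissue was led by matrix collagens. Notochord and cartilage had 40 of 44 markers detected and held 6664, 5711, 7165 and 5430.3 CPM, with replicates 1 and 3 above replicates 2 and 4. The type II collagen copies COL2A1 had 223 ± 49.7 RPKM (ENSDARG00000069093) and 112 ± 7.46 RPKM (ENSDARG00000011407), the matrilin MATN4 139 ± 6.74 RPKM and COL11A1 119 ± 12.2 RPKM. The cartilage regulators named SOX9 had 24.4 and 20.2 RPKM, and the late cartilage genes acana and acanb, which encode aggrecan, 1.34 ± 0.198 and 1.1 ± 0.228 RPKM. Of 22 bone genes 16 were detected, at a median of 4.16 RPKM. The highest were general matrix genes: col1a1a (367 ± 13.8 RPKM), SPARC (335 ± 5.34 RPKM) and POSTN (ENSDARG00000104267, 298 ± 4.77 RPKM), which fibroblasts also make. Some osteoblast genes were low, with the regulators SP7 and RUNX2 at 0.641 ± 0.0863 and 0.225 ± 0.099 RPKM, spp1 at 0.406 ± 0.116 RPKM, and no count for bglap, the osteocalcin gene. Of 44 sclerotome, tendon and fibroblast genes 43 were detected, and the tendon regulator SCX had 3.47 ± 0.589 RPKM.

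The nervous system was broadly expressed. Its neural progenitor list stood higher than its pan-neuronal list by median RPKM, but lower by summed CPM (4333 ± 33.7 against 6413 ± 311.7). Of 41 neural progenitor genes 40 were detected at a median of 28 RPKM, led by the radial glia lipid carrier FABP7 (ENSDARG00000007697, 647 ± 52.9 RPKM), the Notch ligand DLD (106 ± 2.59 RPKM) and GFAP (92.8 ± 6.76 RPKM). SOX3, SOX2 and sox19a, which keep cells in the progenitor state, had 85.7 ± 1.96, 37.6 ± 0.286 and 70.6 ± 1.08 RPKM. The summed level of this list was steady at 4369, 4301, 4353 and 4308 CPM (CV 0.777%). Of 59 pan-neuronal genes 57 were detected at a median of 20.9 RPKM, with tubb5 (321 ± 21.6 RPKM), TUBA1A (222 ± 20.8 RPKM) and STMN1 (ENSDARG00000033655, 186 ± 11.3 RPKM) highest. These are tubulins and a tubulin regulator, and the RNA-binding protein ELAVL3, an early marker of neurons, had 150.2 ± 14.9 RPKM. The synaptic vesicle genes SYT1 and syn1 lay below these leading genes, at 21.6 ± 1.4 and 8.65 ± 0.14 RPKM. CAMK2A, a kinase of mature synapses, had 1.13 ± 0.16 RPKM.

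Most genes of the transmitter systems were detected at low level, with 24 of 29 genes detected. ACHE, which breaks down acetylcholine, had 23 ± 1.35 RPKM, and the GABA synthase GAD1 (ENSDARG00000027419) 11.9 ± 0.403 RPKM. The vesicular glutamate transporters named SLC17A6 had 10.15 and 6.31 RPKM, the glycine transporter SLC6A5 8.58 ± 0.849 RPKM, and the cholinergic synthase CHAT 5.71 ± 0.553 RPKM. Monoamine genes were lower, with TH, for catecholamines, at 3.39 ± 0.227 RPKM and TPH2, for serotonin, at 1.86 ± 0.221 RPKM. Neuropeptides were mostly under the limit of detection, with 12 of 34 detected. Only adcyap1b (21.7 ± 0.64 RPKM) exceeded 10 RPKM, followed by tac1 (8.44 ± 0.971 RPKM) and grp (6.72 ± 0.428 RPKM). The hypothalamic hormone genes oxt, avp and HCRT had 0.711, 0.626 and 0.469 RPKM.

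Regulators of brain and spinal cord regions were broadly present, with 79 of 86 detected at a median of 7.3 RPKM. Of these genes 32 stood at 10 RPKM or more and none above 100 RPKM. IRX3 (ENSDARG00000101076, 35.5 ± 0.561 RPKM), ISL1 (35.2 ± 2.15 RPKM) and DLX5 (28.8 ± 1.58 RPKM) were highest. Forebrain was marked by EMX2 (16.4 ± 1.15 RPKM), the midbrain and hindbrain border by GBX2 (9.69 ± 0.438 RPKM) and en1b (15.7 ± 1.06 RPKM), and ventral spinal cord by OLIG2 (22.3 ± 1.68 RPKM) and NKX6-1 (21 ± 0.584 RPKM). Of this list evx1 had no count, while its relative EVX2 had 6.84 RPKM. Of 27 glial genes 23 were detected, led by FABP7, the glutamine synthase GLUL (ENSDARG00000100003, 107 ± 2.19 RPKM) and GFAP. The myelin gene mbpb had 14.7 ± 0.221 RPKM, while mag stood at 0.433 ± 0.0279 RPKM and the copy mbpa at 0.0173 ± 0.0129 RPKM.

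In the eye, some lens crystallin genes were high and photoreceptor genes were low. The lens list held 2903, 2349.9, 3423 and 2324 CPM, highest in replicate 3 and lowest in replicate 4. Of its 37 genes 27 were detected, at a list median of 8.47 RPKM, and 8 stood at 100 RPKM or more. The beta crystallins CRYBA4 and crybb1l2 had 355 ± 107 and 233 ± 42.8 RPKM and CRYGN (ENSDARG00000030411), a gamma crystallin, 286 ± 34.4 RPKM. The alpha crystallin CRYAA, the chaperone of the lens, had 9.18 ± 2.29 RPKM, and of the pair named CRYAB 1 copy had no count and the other 0.0936 RPKM. Retinal regulators were nearly all detected (30 of 32, median 13.6 RPKM), led by NEUROD4 (89.1 ± 5.77 RPKM), TFAP2A (61.4 ± 3.29 RPKM) and OTX2 (46.6 ± 4.32 RPKM). NEUROD4 is also in the neural progenitor list and TFAP2A in the neural crest list, so their levels are not those of retina alone. The ganglion cell regulator atoh7 had 23.5 ± 0.665 RPKM.

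Of 42 photoreceptor genes 22 were detected, at a median of 0.634 RPKM. GUK1 (ENSDARG00000030340, 18.3 ± 0.981 RPKM) led and is used by all cells, followed by the visual cycle enzyme RPE65 (ENSDARG00000094752, 14.2 ± 1.31 RPKM) and the photoreceptor regulator crx (13.7 ± 2.53 RPKM). The cone opsins were at 1.5 RPKM for opn1lw2, 0.397 RPKM for opn1sw2 and 0.0545 RPKM for OPN1SW, and opn1mw4 had no count. These cone opsins lay below crx and NR2E3 (9 ± 1.42 RPKM), regulators that switch on photoreceptor genes. The pineal gene aanat2, whose enzyme serves melatonin synthesis, had 1.06 ± 0.335 RPKM, and the list was led by BHLHE40 (21.4 ± 1.75 RPKM), crx and TPH1 (ENSDARG00000036082, 2.23 ± 0.209 RPKM).

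Among the globins matched by name, those of embryonic red cells were high. All 7 matched embryonic globin genes were detected, and 4 further entries of that list matched no gene. hbae3 had 4049, 4260.1, 3773 and 4306 RPKM and hbbe3 1017, 971, 829 and 1038 RPKM, and replicate 3 was lowest for both. hbae1.3 and hbae1.2 followed at 252 ± 8.91 and 182 ± 12.1 RPKM and may share reads with near-identical copies. The adult alpha globin hbaa1 had 0.676 ± 0.126 RPKM, under the limit of detection, and hbaa2 had no count. The other 6 adult globin entries matched no gene, so no adult beta globin was measured under its own name. Of 5 identifiers named HBE1, a human-style name for a beta-type globin, ENSDARG00000087390 had 1260.0 ± 75.6 RPKM and ENSDARG00000045143 118 ± 13.4 RPKM, and the other 3 were not detected. The erythroid list was nearly complete (33 of 34), led by carbonic anhydrase cahz (91.9 ± 3.91 RPKM), the haem synthesis gene alas2 (87.6 ± 4.43 RPKM) and SLC4A1. Among its regulators gata1a had 3.43 ± 0.226 RPKM and klf1 2.26 ± 0.352 RPKM.

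White cell genes were low. Of 37 macrophage and neutrophil genes 23 were detected, led by apoeb (639 ± 49.5 RPKM), which skin and yolk layer also use, lyz (139 ± 3.86 RPKM), the lysozyme of neutrophils and macrophages, and LECT2 (ENSDARG00000033227, 24.3 ± 1.52 RPKM). Macrophage genes of restricted expression were low, with csf1ra at 2.79 ± 0.424 RPKM, MPEG1 (ENSDARG00000055290) at 1.07 ± 0.168 RPKM and the pan-leukocyte gene ptprc at 0.581 ± 0.0541 RPKM, and tnfa had no count. Lymphoid genes were close to 0, and of 27 blood stem cell and lymphoid genes 10 were detected, led by TOX (52.9 ± 2.37 RPKM), GATA2 (14.7 ± 1.5 RPKM) and TAL1 (7.71 ± 0.482 RPKM), all used by other tissues too. RAG1 and RAG2, which cut antigen receptor genes, had 0.403 ± 0.292 and 0.405 ± 0.096 RPKM, lck 0.0203 ± 0.0245 RPKM, ighm 0.0493 ± 0.0243 RPKM and igic1s1 no count.

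Vessel genes were well covered, with 48 of 52 endothelial genes detected and 1919, 1915, 1873 and 1921 CPM in all, lowest in replicate 3. The highest members, NR2F1 (ENSDARG00000052695, 62.9 ± 0.74 RPKM), NR2F2 (55.7 ± 1.44 RPKM) and AQP1 (ENSDARG00000023713, 48.4 ± 1.86 RPKM), are also used in brain or red cells. The more restricted receptor kdrl had 7.88 ± 0.863 RPKM, the junction protein cdh5 6.29 ± 0.158 RPKM, FLI1 15.5 ± 0.479 RPKM and the lymphatic receptor FLT4 4.37 ± 0.237 RPKM. Of the plvap copies, plvapb had 22.5 ± 1.25 RPKM and plvapa 0.221 ± 0.0466 RPKM. The haemostasis gene vwf was at 0.0912 ± 0.0302 RPKM.

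Yolk lipid export was the third strongest tissue programme by summed CPM. Its 39 genes held 19229.7, 19935, 18291 and 20273 CPM, lowest in replicate 3, and 34 were detected. Behind apoa1a and apoa1b stood apoa2 (2228 ± 31.8 RPKM), apoc1 (1300.0 ± 30.5 RPKM) and afp4 (ENSDARG00000095863, 947 ± 57.3 RPKM). The large apolipoprotein B genes apobb.1 and APOB, scaffold of lipoprotein particles, had 307 ± 32.4 and 55.3 ± 5.54 RPKM, and MTTP, which loads lipid on them, 3.59 ± 0.372 RPKM. A single copy carried nearly all of FABP1, a fatty acid carrier (ENSDARG00000059227, 697 ± 25.1 RPKM, against 0.168 ± 0.148 RPKM for ENSDARG00000019357). Transthyretin, TTR, was at 0.022 ± 0.0256 RPKM.

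Liver genes ranged from abundant plasma proteins to undetected enzymes. Of 66 liver genes 53 were detected, led by transferrin tfa (360.3 ± 11.2 RPKM), selenop (307 ± 20.2 RPKM) and fetub (154 ± 12.1 RPKM). The fibrinogen chains FGG, FGB and fga stood close together at 67.9 ± 2.5, 64.8 ± 1.23 and 59.08 ± 1.608 RPKM, and the complement genes c9 and c3a.1 at 60.9 ± 2.73 and 52.5 ± 6.09 RPKM. Genes of the mature hepatocyte were low, with fabp10a at 0.654 ± 0.181 RPKM, hamp at 0.607 ± 0.176 RPKM and CYP7A1, the rate-limiting enzyme of bile acid synthesis, at 0.0857 ± 0.0667 RPKM. The yolk layer makes several of these plasma proteins as well, so the list is not specific to hepatocytes.

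Endocrine genes of the pancreas were mostly detected, and exocrine genes mostly were not. Of 23 exocrine genes 3 were detected: PTF1A (12.1 ± 1.04 RPKM), which also patterns hindbrain and retina, CPA1 (ENSDARG00000021339, 3.21 ± 0.309 RPKM) and ela2 (1.77 ± 0.567 RPKM). The trypsin gene prss1 had 0.885 ± 0.253 RPKM, and ctrl and 1 SYCN copy had no count. The whole list held 20.2, 22.9, 22.8 and 21.4 CPM. Of 30 endocrine genes 25 were detected, and the insulin gene ins had 25.5, 29.1, 28.1 and 28.4 RPKM in replicates 1 to 4, while insb had 0.356 ± 0.138 RPKM and the glucagon genes GCG and gcga 6.43 ± 0.912 and 1.1 ± 0.0988 RPKM. The leading members NEUROD1 (42.4 ± 4.26 RPKM), ISL1 and PAX6 (ENSDARG00000103379, 31.5 ± 1.58 RPKM) are also neuronal. Of 32 gut genes 18 were detected, led by FABP2 (49.9 ± 2.97 RPKM), AGR2 (42.3 ± 1.68 RPKM) and sult1st1 (18.2 ± 1.13 RPKM). The brush border protein VIL1 had 0.471 ± 0.0697 RPKM and the peptide transporters named SLC15A1 0.176 and 0.169 RPKM. These lay far below FABP2, which is also a member of the yolk lipid export list.

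Among the pigment cell genes, the xanthophore gene gch2 and the melanophore gene TYRP1 stood highest. Of 23 melanophore genes 22 were detected, led by the melanin synthesis gene TYRP1 (ENSDARG00000056151, 146 ± 3.93 RPKM), the melanosome fibril gene pmela (89.2 ± 1.42 RPKM) and DCT (87.7 ± 3.04 RPKM), with tyrosinase, TYR, at 15.4 ± 1.1 RPKM. Of 34 xanthophore and iridophore genes 33 were detected, led by gch2 (180.4 ± 8.9 RPKM), the first enzyme of pteridine synthesis, and the purine enzymes ATIC (68.9 ± 3.5 RPKM) and ADSL (66.5 ± 1.41 RPKM), which all dividing cells use. Other genes of the pteridine pathway were lower, with 5.32 ± 0.371 RPKM for XDH, 4.11 ± 0.573 RPKM for GCHFR and 5.66 and 3.64 RPKM for the SPR copies. The iridophore genes pnp4a and ltk had 18.6 ± 1.86 and 2.09 ± 0.145 RPKM. Of 20 neural crest genes 19 were detected, led by TFAP2A, SOX9 and TFAP2E (21.1 ± 2.17 RPKM), and SOX10 had 9.82 ± 0.436 RPKM. FOXD3 had no count in any library, and whether its reads were lost in counting was not tested.

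Of 53 ear and lateral line genes 45 were detected. The calcium buffer pvalb9 (149.5 ± 6.63 RPKM), the claudin cldnb (61.1 ± 3.4 RPKM) and ACKR3 (ENSDARG00000058179, 47.3 ± 1.59 RPKM), which shapes the chemokine gradient of the migrating lateral line, were highest, and the otolith gene stm had 29.9 ± 1.08 RPKM. Genes of the transduction apparatus of hair cells were low, with TMC1 at 0.197 ± 0.0412 RPKM and CDH23 at 0.226 ± 0.00752 RPKM. The olfactory list had 6 of 9 genes detected, led by EBF2 (39.4 ± 0.257 RPKM), gnal2 (9.45 ± 0.746 RPKM) and gnal (5.48 ± 0.38 RPKM), and the olfactory marker protein copies OMP stood at 0.649 and 0.423 RPKM.

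The pronephros, the functioning kidney of the embryo, had 38 of 43 genes detected. SLC20A1 (ENSDARG00000010641, 52.1 ± 1.01 RPKM), a phosphate transporter, lhx1a (48.8 ± 1.99 RPKM) and spint2 (43.8 ± 0.613 RPKM) were highest. The endocytic receptor LRP2 of the proximal tubule had 2.9 ± 0.148 RPKM, the distal transporters SLC12A3 and SLC12A1 2.45 ± 0.394 and 1.08 ± 0.213 RPKM, and the slit diaphragm gene NPHS1 1.01 ± 0.0674 RPKM. Genes from glomerulus to distal tubule were thus each detected. In the thyroid and pouch list 15 of 20 genes were detected, led by PAX2 (ENSDARG00000028148, 13.8 ± 0.722 RPKM), TBX1 (10.28 ± 0.4694 RPKM) and PAX8 (8.33 ± 0.428 RPKM), while thyroglobulin, TG, had 0.436 ± 0.0421 RPKM. The leading genes PAX2, TBX1 and PAX8 are also members of the ear and lateral line list.

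The interrenal and steroid list had a median of 0.762 RPKM, and most pituitary genes were not detected. In the interrenal and steroid list 13 of 22 genes were detected, led by the cortisol response genes FKBP5 (34.7 ± 2.36 RPKM) and tsc22d3 (32.6 ± 1.61 RPKM) and by fdx1 (17.3 ± 0.764 RPKM). The steroid synthesis genes CYP17A1 and STAR had 7.24 ± 0.468 and 5.09 ± 0.333 RPKM and the ACTH receptor mc2r 0.0224 ± 0.0291 RPKM. In the pituitary list 8 of 23 genes were detected, led by SOX3, NEUROD1 and ascl1a (21.7 ± 0.569 RPKM), which are foremost neural genes. Prolactin, prl, had 2.39 ± 0.281 RPKM, growth hormone gh1 0.429 ± 0.168 RPKM and POMC 0.105 ± 0.0182 RPKM, and the gonadotropin genes fshb and lhb had no count.

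Germ cell genes were near the floor. Of 36 entries 14 were detected, and the highest, CELF1 (28.7 ± 0.305 RPKM) and the SOX9 copies, are used in somatic tissue. Without these 3 the remaining 33 genes held 38.5, 42.0, 41.8 and 38.3 CPM, with 11 detected (an alternative added after seeing the data). DDX4, the vasa gene of germ cells, had 1.82 ± 0.176 RPKM and NANOS3 1.91 ± 0.234 RPKM, whereas the egg genes GDF9, zp2.1 and buc had 0.0421, 0.0203 and 0.0165 RPKM.

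Genes of the maternal and gastrula stages were mostly under the limit of detection. Of 47 maternal and gastrula stage genes 18 were detected, at a median of 0.359 RPKM. Among the detected were CCNB1 (63 ± 2.43 RPKM), a mitotic cyclin of all dividing cells, and EOMES (ENSDARG00000006640, 8.43 ± 0.119 RPKM), which the brain also uses. The pluripotency genes pou5f3 and nanog had 0.31 ± 0.085 and 0.0853 ± 0.0385 RPKM, the nodal ligands ndr1 and ndr2 0.0235 ± 0.0194 and 0.0556 ± 0.0323 RPKM, and the WNT8A copies and dharma no count. Of 24 segmentation stage genes 14 were detected, but the leading ones, DLD, LFNG (91.2 ± 3.48 RPKM) and HES6 (ENSDARG00000019335, 63.8 ± 1.5 RPKM), act in neural tissue too. Genes of the segmentation clock differed widely in level: her12 and the Notch ligand dlc had 53.6 ± 1.84 and 28 ± 0.973 RPKM, against 0.105 ± 0.0352 RPKM for her7. Like DLD and HES6, dlc is also a member of the neural progenitor list. The presomitic genes ripply1, msgn1 and mespaa had 1.45 ± 0.252, 0.144 ± 0.0462 and 0.00989 ± 0.0198 RPKM.

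Cell division genes were widely expressed. Of 44 proliferation genes 42 were detected at a median of 51.5 RPKM, and their sum was steady at 7935, 7985, 7922 and 8107 CPM (CV 1.05%). The chromatin proteins hmgb2b and HMGB2 had 657 and 632 RPKM, the replication clamp PCNA 378 ± 17.4 RPKM and mki67 87.3 ± 4.25 RPKM. The 2 copies of MCM6, a subunit of the replicative helicase, were far apart at 51.1 RPKM (ENSDARG00000057683) and 0.212 RPKM (ENSDARG00000033231).

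Constitutive chaperones were high, while genes induced by heat or interferon were low. Of 55 genes 45 were detected, led by HSPA8, HSP90AB1 (1059 ± 10.7 RPKM) and CCNG1 (287 ± 22.2 RPKM), a target of p53. The heat-inducible hsp70l had 0.479 ± 0.101 RPKM, the immediate early genes egr1 and FOS 4.14 ± 0.139 and 2.92 ± 0.373 RPKM, and the interferon-induced genes isg15, RSAD2 and mxa 0.334, 0.0905 and 0.0698 RPKM. The p53 targets cdkn1a and mdm2 had 2.65 ± 0.835 and 11.6 ± 1.14 RPKM, and 1 SOCS3 copy (ENSDARG00000025428) and il11b no count. Of 39 circadian genes 37 were detected, led by the kinases csnk1da (76 ± 0.584 RPKM) and CSNK1D (37.8 ± 0.89 RPKM) with nfil3-5 (38.5 ± 0.648 RPKM), and cry3a, a repressor of the clock, had 31.8 ± 1 RPKM.

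The machinery that processes and uses microRNA was present throughout. Of 39 genes in the microRNA, Polycomb and DNA methylation list 38 were detected. The chromatin genes RBBP4 (136 ± 4.33 RPKM), rbb4l (64.4 ± 1.25 RPKM) and TDG (ENSDARG00000013004, 44.9 ± 1.03 RPKM) were highest. The nuclear processing genes DROSHA and DGCR8 had 8.14 ± 0.283 and 18.2 ± 0.453 RPKM, the exporter XPO5 5.94 ± 0.296 RPKM, DICER1 10.16 ± 0.64 RPKM and TNRC6A, which silences bound messages, 33.6 ± 2.07 RPKM. Among the Argonautes, which hold the microRNA, AGO4 (30.8 ± 2.97 RPKM) was highest, ahead of AGO1 (10.8 ± 1.98 RPKM), ago3a (4.55 ± 0.896 RPKM), AGO2 (3.69 ± 0.516 RPKM) and AGO3 (2.15 ± 0.247 RPKM). The Polycomb methyltransferase EZH2 had 23.9 ± 0.677 RPKM and its relative ezh1 1.1 ± 0.157 RPKM, and the maintenance DNA methyltransferase DNMT1 36.6 ± 1.9 RPKM.

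Hox genes, which give body levels along the head to tail axis, had a median of 9.455 RPKM, against 5.96 RPKM over all detected genes. All 47 were detected, in cluster group A 11 genes with a median of 6.50 RPKM, in B 15 genes with 13.5 RPKM, in C 14 genes with 7.60 RPKM, and in D 7 genes with 8.75 RPKM. The highest were HOXB3 (29.1 ± 0.586 RPKM), HOXB5 (ENSDARG00000054030, 26.5 ± 0.674 RPKM) and HOXB8 (24.7 ± 1.69 RPKM), all in group B, whose genes summed to 442 CPM, against 175, 233 and 105 CPM for A, C and D. HOXC4 (24.5 ± 1.17 RPKM) was the highest outside group B. By position within the clusters, the medians of paralog groups 3 to 6 and 8 to 9 were 11.2 to 16.6 RPKM, group 1 stood at 4.45 RPKM and groups 11 to 13, which mark tail and fin tip, at 3.12 to 5.16 RPKM. The lowest were hoxd13a (1.31 ± 0.23 RPKM) and a copy of HOXA11 (ENSDARG00000104162, 1.31 RPKM). These are summed over all tissues and give no position along the axis.

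**Figure D3:**
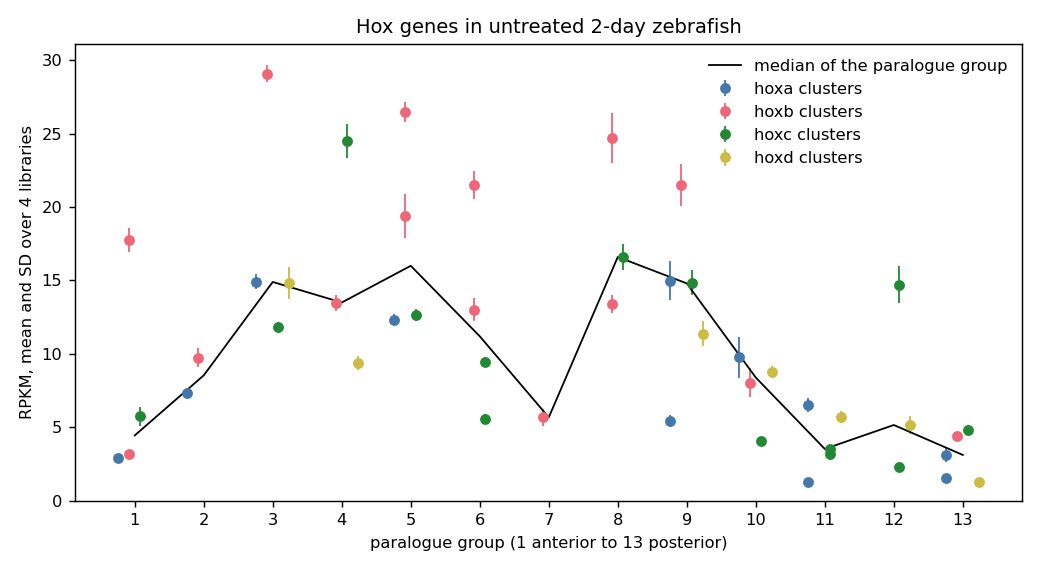
RPKM of the 47 hox genes by paralog group, from 1 (anterior) to 13 (posterior), as the mean with bars of 1 SD over the 4 control libraries, with colour for the cluster group and a black line through the group medians. The highest points are HOXB3, HOXB5 and HOXB8, and groups 11 to 13 lie low except for 1 HOXC12 copy (14.7 RPKM).

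Gene copies were compared by RPKM. Of 671 pairs whose symbols differ in a final a or b, 599 had a higher member at 1 CPM or more, and in 588 of these both members had at least 3 counts. The members differed by over 4-fold in 244 pairs (41.5%), with a the higher in 134 and b in 110, and they lay within 2-fold in 204. In 533 of the 588 pairs the ranges over the 4 libraries did not overlap, so most pairs kept their order in every library. The share among unrelated pairs of genes was not computed, so whether this is particular to copies was not tested. Both members were detected in 450 pairs. Among 1571 pairs of identifiers that share a symbol, 1415 could be measured in both, and 536 of them (37.9%) differed by over 4-fold. The letters were taken from the names, so a pair may include genes that are not copies from the genome duplication.

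**Figure D4:**
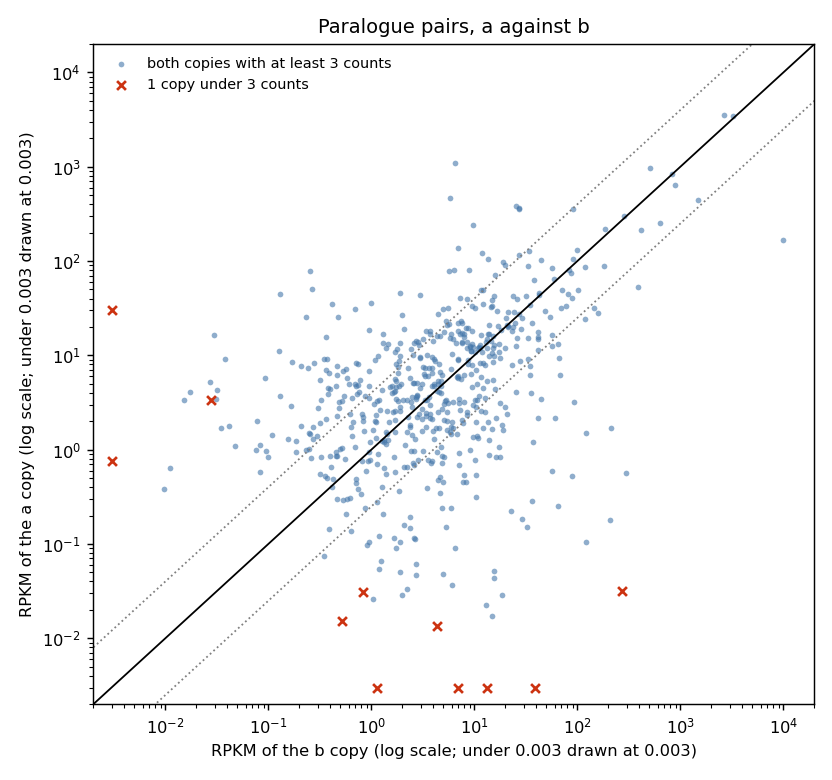
Mean RPKM over the 4 control libraries of the a copy (vertical axis) against the b copy (horizontal axis) of each pair whose symbols differ in a final a or b, both axes on log scales; the solid line marks equal levels, the dotted lines 4-fold, and red crosses the 11 pairs with a copy under 3 counts. Pairs lie on both sides of the line, and 244 of the 588 pairs measured in both copies (blue points) lie outside the dotted lines.

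Among pairs with a higher member of at least 50 CPM, the largest ratio was that of the cobalamin-binding genes tcnba and tcnbb. Their levels were 0.180 ± 0.0956 and 206 ± 12.9 RPKM, a log2 ratio of -10.16 for a over b. The myosin-binding protein genes mybpha and mybphb had 0.567 ± 0.139 and 295.9 ± 13.9 RPKM, and the pyruvate dehydrogenase subunits pdha1a and pdha1b 77.7 ± 1.81 and 0.256 ± 0.0691 RPKM. Nearly all counts of these pairs lay on 1 copy. The same held for the sugar transporter genes slc2a11a and slc2a11b (0.0288 and 18.7 RPKM), col28a2a and col28a2b (44.8 and 0.130 RPKM), abi3bpa and abi3bpb (0.0517 and 15.5 RPKM), the pyrophosphatases ppa1a and ppa1b (0.249 and 64.8 RPKM), and fip1l1a and fip1l1b (0.152 and 32.4 RPKM). At the other end, the cold-inducible RNA-binding genes cirbpa and cirbpb had 833 ± 5.16 and 832 ± 20.3 RPKM. The pairs capn2a and capn2b, oxsr1a and oxsr1b, brd3a and brd3b, and lgals3a and lgals3b had log2 ratios of -0.01, 0.03, -0.04 and 0.04.

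Pairs with a shared symbol ranged as widely. The higher HSPA8 copy had 1595 ± 15.9 RPKM and the other, ENSDARG00000037403, 0.851 ± 0.141 RPKM, and the DES copies had 157 and 0.135 RPKM. Housekeeping genes were also one-sided: the phosphate carrier SLC25A3 copies had 264 and 0.443 RPKM, the translation factor EIF3B 200.1 and 0.425 RPKM, the glycolytic ALDOC 71.0 and 0.0720 RPKM, and STK24 17.2 and 0.0382 RPKM. The RPL5 copies, by contrast, had 1179 ± 51.0 and 1202 ± 26.0 RPKM. EIF4G3, STOX2 and ARCN1 copies differed by at most 0.04 on the log2 scale. A low copy with a near-identical sequence may have lost or gained shared reads, so these ratios are uncertain in that respect.

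Within the marker lists, the a and b copies ranged from equal to nearly exclusive. The transferrin receptors tfr1a and tfr1b (11.8 ± 1.99 and 11.4 ± 0.545 RPKM), the apelin receptors aplnra and aplnrb (10.9 ± 0.764 and 10 ± 0.752 RPKM) and ckma and ckmb (3463 ± 97 and 3239 ± 169 RPKM) were close. The apolipoprotein pair apoa1a and apoa1b kept a log2 ratio of 0.39 with an SD of only 0.018 over the libraries, while their separate CPM had CVs of 4.42% and 3.93%. The muscle actins actc1a and actc1b differed by -5.89 on the log2 scale with an SD of 0.039, the claudins cldna and cldnb by -4.82, the carbonic anhydrases ca15a and ca15b by 5.62 and the purine enzymes pnp4a and pnp4b by 4.29. The myelin genes mbpa and mbpb lay farthest apart, at -9.73. That ratio is imprecise, since mbpa had only 5 counts over the 4 libraries and gave no ratio in replicate 3.

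The 4 libraries were close to each other for most genes. Among the 10826 genes that averaged 10 CPM or more the median CV was 4.71% (quartiles 3.15% and 6.89%), and among the 1661 genes that averaged 100 CPM or more it was 3.36%. A CV over 10% was found for 977 genes (9.02%), and over 20% for 60. The common biological coefficient of variation of edgeR, which takes out counting noise, was 5.44%. Without replicate 3 it was 3.67%, against 5.85% to 6.07% without each of the other libraries in turn, and the genes with a CV over 10% numbered 490 in place of 977 and those over 20% 30 in place of 60.

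The steadiest abundant gene was FUBP1, a DNA- and RNA-binding protein, with 559.7, 562, 561 and 560.5 CPM (CV 0.147%). It was followed by TPD52L2, the neural progenitor gene sox19a with 153, 154, 152 and 153 CPM, the histone methyltransferase KMT5B, si:ch73-21g5.7, leng8, the histone chaperone NASP, the phosphatase subunit PPP4R3A, STRN3 and NEO1 (ENSDARG00000102855), all with a CV of at most 0.666%. These values lie under the spread that counting noise alone gives on average, and they are the smallest of 1661 genes.

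The most variable gene was rn7sl1, the RNA of the signal recognition particle, with 29.5, 18.7, 5.26 and 5.61 CPM (CV 78.9%, and 66.7% without replicate 3). It is not polyadenylated, and replicates 1 and 2 lay above replicates 3 and 4. Of the 10 genes with the largest CV, 3 were lens crystallins and 2 were notochord genes. The lens crystallins crybb1l1, CRYBA4 and CRYBB1 had 138, 81.4, 162 and 84.9 CPM, 281, 190.5, 351 and 187 CPM and 223, 144, 267 and 154 CPM. The notochord regulator tbxta had 12.2, 8.98, 14.5 and 7.11 CPM and ngs, a notochord protein gene, 105, 69.6, 120.2 and 65.7 CPM. In each of these 5 genes replicate 3 was highest, replicate 1 second, and replicates 2 and 4 lowest. The clone-named si:ch211-281l24.3, zgc:113232 and si:ch1073-190k2.1 also had replicates 1 and 3 above replicates 2 and 4, with CVs of 35.3%, 33.3% and 32.8%. The remaining gene of the 10 has no symbol and went the other way, with 14.7, 51.2, 16.1 and 47.3 CPM.

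The spread was uneven between tissues. Of 37 lens and crystallin genes with at least 10 CPM, 32 (86.5%) had a CV over 10%, and 35 were highest in replicate 3, against 9.02% and 37.0% of all genes at that level. For notochord and cartilage 16 of 32 genes had a CV over 10%, and for fast muscle 18 of 43. Pan-neuronal genes were mostly highest in replicate 3 (43 of 52), with 11 over 10%. For periderm 4 of 50 genes (8%) and for endothelium 4 of 37 (10.8%) had a CV over 10%, close to the share of all genes, and for ribosomal proteins 1 of 88 (1.14%). Without replicate 3 the genes with a CV over 10% numbered 14 for lens and crystallins, 12 for notochord and cartilage, 13 for fast muscle, 2 for pan-neuronal genes, 2 for periderm, 0 for endothelium and 1 for ribosomal proteins. Summed over a list, the lens had a CV of 19% (12.9% without replicate 3), the adult globins, which had under 1 CPM in all, 18.7% (22.7%), heart 14.9% (18%) and notochord and cartilage 13% (10.9%). Without TTN, which skeletal muscle also uses, the heart list had a CV of only 1.3%. The pineal list had 11.6% with all 4 libraries but 3.85% without replicate 3. Of the 49 lists 36 stayed under 5%, and 44 did so without replicate 3. Replicate 3 was the highest library in 23 lists and the lowest in 16. Replicate 3 also had the most counts and replicate 1 the fewest, and the part of depth in these differences was not tested.

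**Figure D5:**
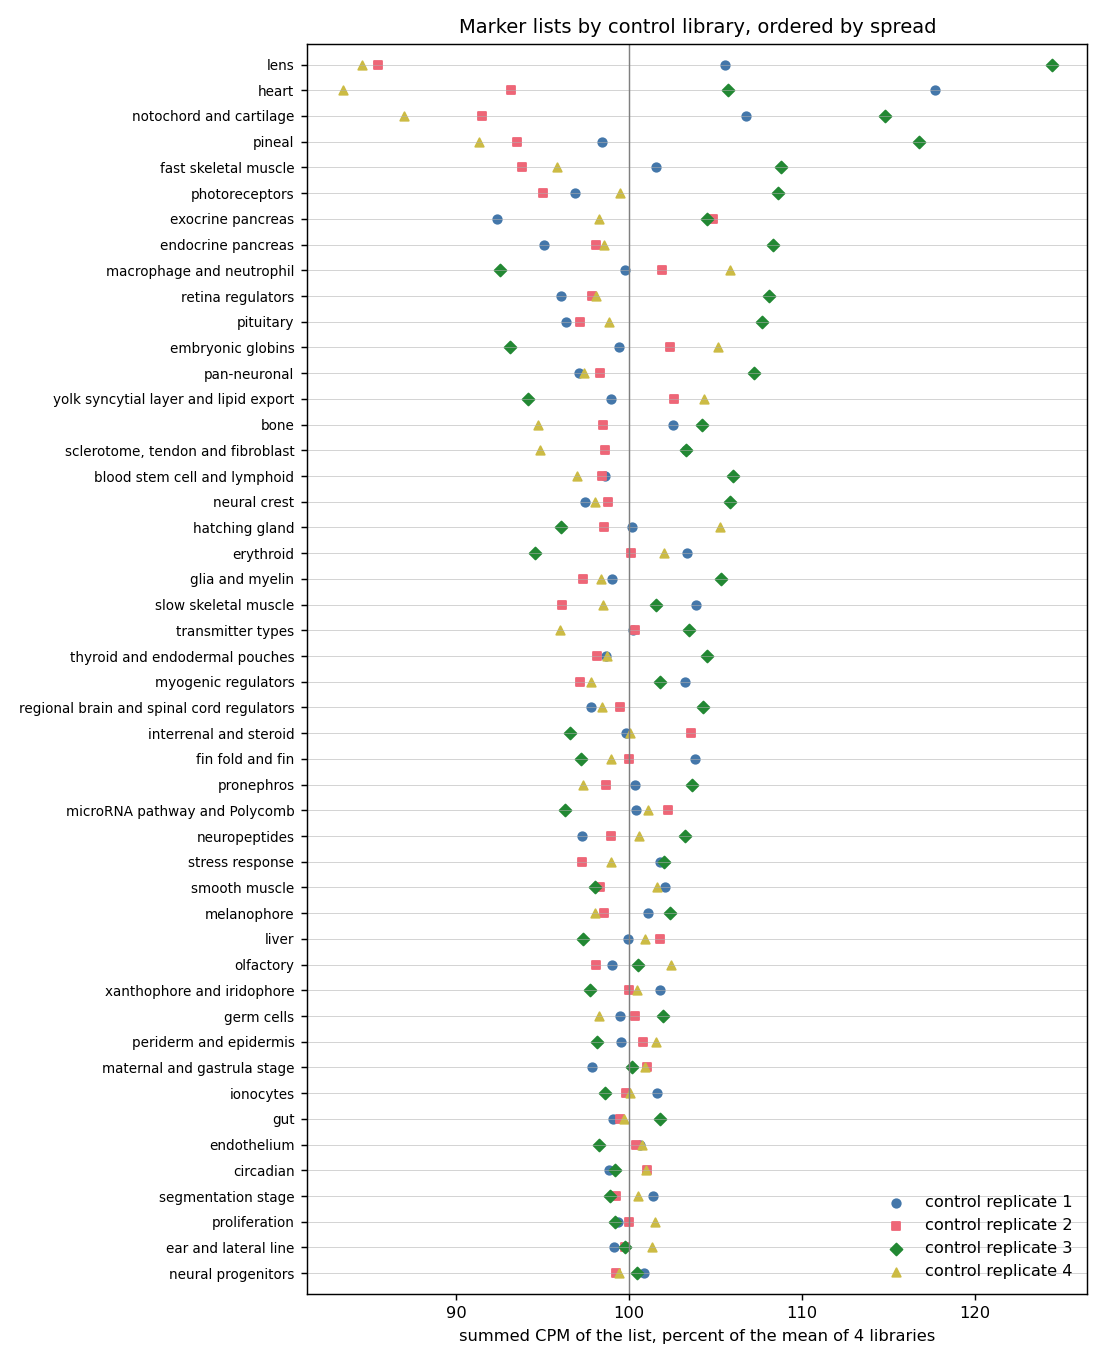
Summed CPM of each marker list in each of the 4 control libraries, as a percent of the mean of the 4, for 48 lists ordered by their CV, with the adult globins left out because they had almost no counts. Lens, heart, notochord and cartilage and pineal spread widest, and replicate 3 (green) lies at the edge of most lists. The heart list is drawn with TTN, without which its CV was 1.3%.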

How the data were processed

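RNA from whole 2-day zebrafish was sequenced in 12 libraries, of which the 4 untreated ones are described here; per the labels' protocols the libraries were prepared with TruSeq RNA v2, a kit that does not mark strand. Reads were handled with bcl2fastq 1.8.4, STAR 2.4.1d and featureCounts 1.4.6-p4 on GRCz10, per the submitters' processing notes; settings are not given in the sources used here. The authors deposited whole-number read counts per Ensembl gene. The authors also deposited RPKM values. In these, tested on 9800 genes with at least 300 counts, the library totals of all 12 samples run down the genes in turn, so only 8.33% of the control values were divided by their own total, with errors of up to 1.49-fold.

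Gene lengths were therefore recovered from the deposited RPKM, in which the treated libraries' totals serve only as arithmetic constants, and RPKM was recomputed from each library's own total. CPM was scaled by TMM over the 4 libraries (edgeR 4.0.16, R 4.3.3; Python 3.11.15). Dispersion came from edgeR, with DESeq2 1.42.0 as an alternative. With a single group there is no test. Of the list entries 635 matched by the gene's own symbol, 532 by a human-style symbol, 416 by one shared between copies and 63 by an alias, and 89 did not match and were left out. Sequences and coordinates were not used here. Genes without a symbol (5836, with 1.46% of the counts) were counted only. Unstranded counts of overlapping genes, and of near-identical copies, cannot be told apart.

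Named were the 20 highest genes by CPM and by RPKM, the 3 highest of each list and members with no count, the 8 largest and 5 smallest ratios of pairs with a higher member of at least 50 CPM and at least 10 counts in the lower, the 10 largest CVs at 10 CPM or more and the 10 smallest at 100 CPM or more, and the 3 highest hox genes; textbook markers were added after their values were seen. Some genes that these rules name are not reported here. The members, lists and rules were chosen with earlier results of these data known. The pair comparison was tested on simulated data. Alternatives were other thresholds, DESeq2 size factors, the deposited RPKM and leaving out each library.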

Additional observations from a re-analysis of the deposited data

Results flagged for a closer look

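In each of 129 sets of 4 values (the listed genes, families and list sums of the control libraries) the highest and the lowest library were compared with the gap that Dixon's 95% critical value allows. Chance marks about 1 set in 20, and 10 sets were marked, 8 of them through replicate 3. The sets are not independent, since some share genes: TFAP2A, for example, is in both the retina and the neural crest list. Replicate 3 was the highest library for pan-neuronal genes (6878 CPM summed, the others 6225 to 6304), retina regulators (1499 CPM, the others 1332 to 1361), neural crest (768.1 CPM, the others 707.2 to 716.8), and thyroid and endodermal pouches (207.3 CPM, the others 194.7 to 195.9). It was also the highest for nuclear genes of oxidative phosphorylation (1.229% of counts, the others 1.155% to 1.159%), for MYL1 (ENSDARG00000017441, 4715 CPM, the others 4060.2 to 4156) and for actb2 (4366 CPM, the others 4216 to 4222). It was the lowest for the endothelium list (1873 CPM, the others 1915 to 1921). MT-CO1 was lowest in replicate 1 (7429 CPM, the others 7728 to 7762), and si:dkey-151g10.6 was lowest in replicate 2 (2006 CPM, the others 2094 to 2110.3).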

How the results depend on the processing

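With a limit of 10 CPM in place of 1 CPM, 10399 genes were detected, and limits of 0.1 to 5 CPM gave 21516 to 13228. The top 100 genes took 26.7% of the counts without the mitochondrial genes and 39.0% of the summed RPKM. Of the 20 most abundant genes by CPM 12 were in the top 20 by RPKM and 13 by the deposited RPKM. By share of the summed RPKM, 31 of 33 family shares moved by more than their spread between libraries: ribosomal protein genes took 17.98% in place of 9.874% of the counts, mitochondrial genes 5.036% in place of 2.432%, globins 1.307% in place of 0.4446% and collagens 0.4227% in place of 1.306%. Pairs of copies over 2-fold numbered 384 and over 10-fold 128. Leaving out 1 library at a time gave 17740 to 17785 detected genes, 27.3% to 27.5% of counts in the top 100, all 20 top genes shared, 9.77% to 9.95% for ribosomal proteins, 1153 to 1158 detected markers, 238 to 241 pairs over 4-fold, a common biological CV of 3.67% to 6.07% and a median CV of 3.64% to 4.82%; both lowest spreads were those without replicate 3, and the cause was not tested. The deposited RPKM moved the medians of 21 of 49 lists by more than their spread. The median of the gene-wise biological CV was 5.79% by edgeR and 7.46% by DESeq2. No paired analysis was possible because only 1 group was described. Levels under about 1 CPM rest on fewer than 30 reads a library, and ratios of copies with few counts are imprecise.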
